A study of Homo sapiens with 10 samples.

Results

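The peaks described here are those that the deposited peak list for normoxia holds in genes with no peak at all in the deposited list for hypoxia. They numbered 1109 of the 2285 peaks of the normoxia condition list and lay in 671 of its 1231 genes (54.5%). They are called the unshared peaks and unshared genes, and the other 1176 peaks, in 560 genes that had a peak in both condition lists, are called shared. The unshared peaks were chosen by the calls of the 2 condition lists, through the gene name given to each peak, so their absence from the hypoxia condition list is the choice and not a result. The hypoxia condition list was 3.36 times as long as the normoxia one, with 7669 peaks in 2637 genes. With only its 2285 peaks of smallest p kept, as many as the normoxia list holds, 1103 genes were unshared in place of 671.

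The study profiled N6-methyladenosine (m6A) in V16A, a castration-resistant prostate cancer cell line, by MeRIP-seq. An antibody to the mark captures RNA fragments, which are sequenced, and an input sample skips the capture. Of 10 samples, 5 were pulled down: 2 from cells in hypoxia, 2 from cells in normoxia, and 1 labelled EU 40min, taken as new RNA after 40 min of ethynyl uridine, for which the labels give no oxygen condition. Each of the 5 had a peak list of its own beside the 2 condition lists, and the labels do not say whether replicates came from separate cultures. No genotype or drug treatment is named, and V16A stands for a single cell line.

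The library lists ran to 2879 and 6621 peaks for hypoxia replicates 1 and 2, to 212 and 1563 for normoxia replicates 1 and 2, and to 5044 for EU. Normoxia replicate 1 stood apart from replicate 2 in the genes it held as well as in length. Of 14 T and NK cell markers, 10 and 12 had a peak in hypoxia replicates 1 and 2, 5 and 0 in normoxia replicates 1 and 2, and 10 in EU. Of 11 epithelial and prostate markers, 1 and 3 had a peak in hypoxia replicates 1 and 2, 0 and 4 in normoxia replicates 1 and 2, and 7 in EU. The markers of the labelled cell type were without a called peak in normoxia replicate 1. That list held 139 genes, against 897 in replicate 2, so 0 of 11 does not show that these markers were lacking. CD2, TRAC, GZMB, NKG7 and GNLY had a peak in normoxia replicate 1. These 5 were also the T and NK cell markers of the normoxia condition list, while its 4 epithelial and prostate markers, KLK2 and HOXB13 among them, were those of normoxia replicate 2. KLK2 and GZMB were unshared. No macrophage, fibroblast or endothelial marker had a peak in either normoxia library. The part that this difference between libraries plays in the results was not tested, and counts over both normoxia libraries are therefore given with those of each library.

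In mRNA, m6A is laid down by a nuclear complex built around METTL3 and METTL14, mostly within a short motif of which GGAC is a common core, and it gathers in long internal exons and near stop codons. Reader proteins of the YTH family bind it, and YTHDF2 directs marked transcripts to decay. The mark is known for short-lived transcripts of regulatory genes. A peak list records where pulled-down RNA passed the authors' threshold, so a gene without a peak is not shown to be unmethylated or silent.

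The sequence of most peaks could not be read, since only RefSeq promoter windows, from 250 bases before to 50 after each annotated start, were at hand. Of the unshared peaks, 37 (3.34%) reached into the window of their own gene on the same strand, against 23 (1.96%) of the shared peaks. For 12 unshared peaks of 1 block, at least 40 bases lay before the RefSeq start, and 6 of these lay before it whole. These 6 are shown because every base of them can be read and lies before the annotated first base of the gene that the list names for them. All were read from RefSeq (GRCh38.p14) in the direction of the gene, 5′ to 3′, with GGAC in capitals.
BCAR1, chr16:75266090-75266240, minus strand: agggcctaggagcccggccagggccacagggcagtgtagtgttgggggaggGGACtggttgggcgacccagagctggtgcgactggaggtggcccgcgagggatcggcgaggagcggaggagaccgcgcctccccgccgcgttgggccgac
RTN4R, chr22:20268357-20268506, minus strand: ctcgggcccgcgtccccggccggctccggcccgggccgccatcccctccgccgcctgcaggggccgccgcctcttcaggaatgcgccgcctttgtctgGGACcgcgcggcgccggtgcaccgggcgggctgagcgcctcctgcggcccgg
OTUD5, chrX:48957750-48957849, minus strand: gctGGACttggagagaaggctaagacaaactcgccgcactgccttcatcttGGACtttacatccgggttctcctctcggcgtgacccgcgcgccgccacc
ASCC1, chr10:72216076-72216176, minus strand: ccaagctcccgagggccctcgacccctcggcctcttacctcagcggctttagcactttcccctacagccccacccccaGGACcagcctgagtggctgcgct
KDSR, chr18:63367310-63367410, minus strand: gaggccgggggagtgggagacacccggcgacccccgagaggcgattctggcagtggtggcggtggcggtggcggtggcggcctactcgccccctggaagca
FARS2, chr6:5261289-5261387, plus strand: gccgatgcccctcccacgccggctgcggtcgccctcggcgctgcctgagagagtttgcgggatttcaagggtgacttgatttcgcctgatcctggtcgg

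BCAR1 encodes p130Cas, a docking protein of focal adhesions, RTN4R the Nogo receptor of neurons, OTUD5 a deubiquitinase, KDSR an enzyme of sphingolipid synthesis and FARS2 the mitochondrial phenylalanine tRNA synthetase. GGAC stood in 4 of the 6 sequences, with 2 copies in OTUD5, and in 5 of the 12 stretches of at least 40 bases. The motif was searched on the gene's strand only. For scale, 30.6% of all 35116 RefSeq promoters held it in the 100 bases before the start and 59% in the 250 bases before it. A match is a description of the letters and not a mapped methylation site, and the absence of one in KDSR and FARS2 says nothing more than that. The BCAR1, RTN4R, OTUD5 and KDSR peaks each overlapped a peak of normoxia replicate 2, the ASCC1 and FARS2 peaks overlapped none in any of the 5 libraries, and none of the 6 overlapped a peak of the hypoxia or EU libraries.

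The unshared genes were first followed into the normoxia libraries. A peak under the same gene name stood in at least 1 normoxia library for 332 of the 671 (49.5%), against 371 of the 560 shared genes (66.2%) and 57.1% of all genes of the normoxia condition list. Nearly all of that came from replicate 2, which held 316 unshared genes (47.1%, 43.3 to 51) and 330 shared genes (58.9%, 54.7 to 63). Replicate 1 held 25 (3.73%) and 72 (12.9%). Ranges in parentheses are exact 95% binomial intervals and cover counting error over genes or peaks only, not the spread between libraries.

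By position, 503 of the 1109 unshared peaks (45.4%, 42.4 to 48.3) shared at least 1 base on the same strand with a peak of a normoxia library, against 651 of the 1176 shared peaks (55.4%, 52.5 to 58.2) and 50.5% of all peaks of the list. Replicate 2 accounted for 484 of the 503, and 288 of these had the very same blocks in the condition list and in the library. Replicate 1 accounted for 28, so that without replicate 2 the overlapped share of unshared peaks was 2.52%. Both replicates overlapped 9 unshared peaks (0.812%), against 34 shared peaks (2.89%).

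**Figure D1:**
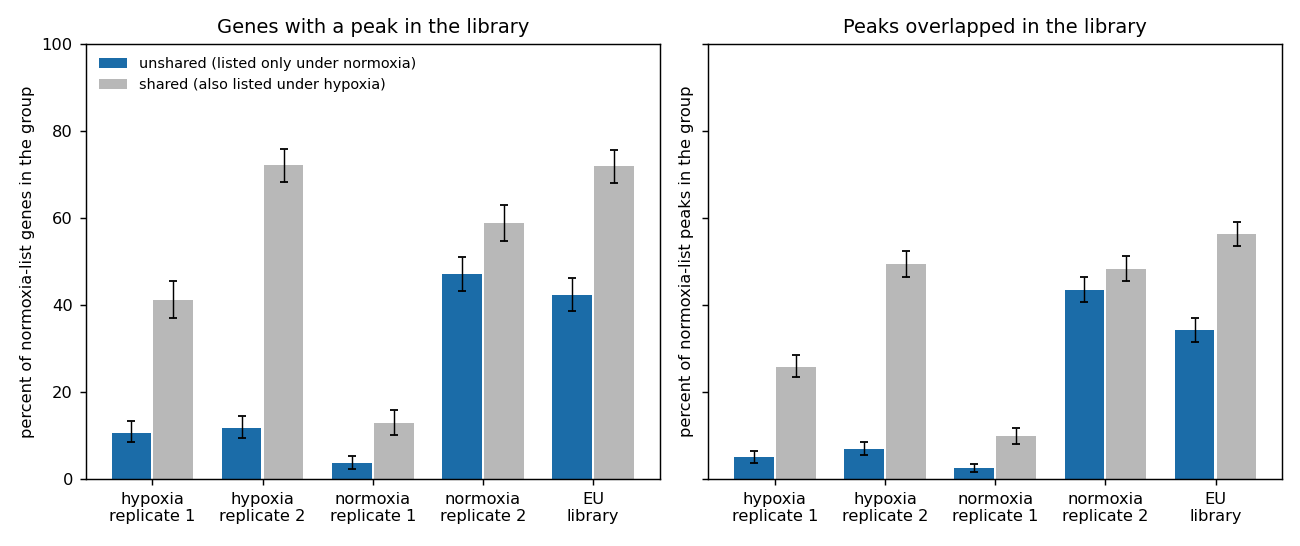
Percent of unshared genes (blue, left of each pair) and shared genes (grey) with a peak in each library, and the same for peaks overlapped by at least 1 base; error bars are exact 95% binomial intervals. Unshared genes stand below shared genes in all 5 libraries, at 11.8% and 72.1% in hypoxia replicate 2 and at 47.1% and 58.9% in normoxia replicate 2.

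The 9 unshared genes with a peak in both normoxia replicates were GCC1, TIMM13, MIS12, YTHDF2, THRIL, CTD-2541J13.2, IRF2BPL, C6orf106 and FAM83H. Of them, TIMM13, MIS12 and CTD-2541J13.2 had no peak in either hypoxia library. TIMM13, a chaperone for import into the mitochondrial intermembrane space, had 1 peak of 247 bases at chr19:2426758-2427004 (hg38), minus strand. The same site had 198 and 149 bases called in normoxia replicates 1 and 2 and 248 in EU. MIS12, a kinetochore protein, had 1 peak of 395 bases at chr17:5489187-5489581, plus strand. Its 2 normoxia replicates covered different ends of that peak, 5489384 to 5489532 in replicate 1 and 5489187 to 5489384 in replicate 2, and met in 1 base. The EU library had 643 bases there. CTD-2541J13.2, a clone-named transcript on chromosome 18 that RefSeq did not match, had 297 bases at 67513044 to 67513340, with 2 peaks in each normoxia replicate and 1 in the EU library.

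YTHDF2, the reader that directs m6A-marked RNA to decay, was an unshared gene with calls in libraries of both conditions. It had 2 peaks in the normoxia condition list, of 496 and 198 bases, on the plus strand of chromosome 1. There were 0 and 2 peaks in hypoxia replicates 1 and 2, 1 and 2 in normoxia replicates 1 and 2, and 2 in the EU library. The wider peak began at base 28743448 in the condition list, and also in hypoxia replicate 2 and both normoxia replicates. The condition list thus set YTHDF2 apart from hypoxia although hypoxia replicate 2 had a call with the same start.

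**Figure D2:**
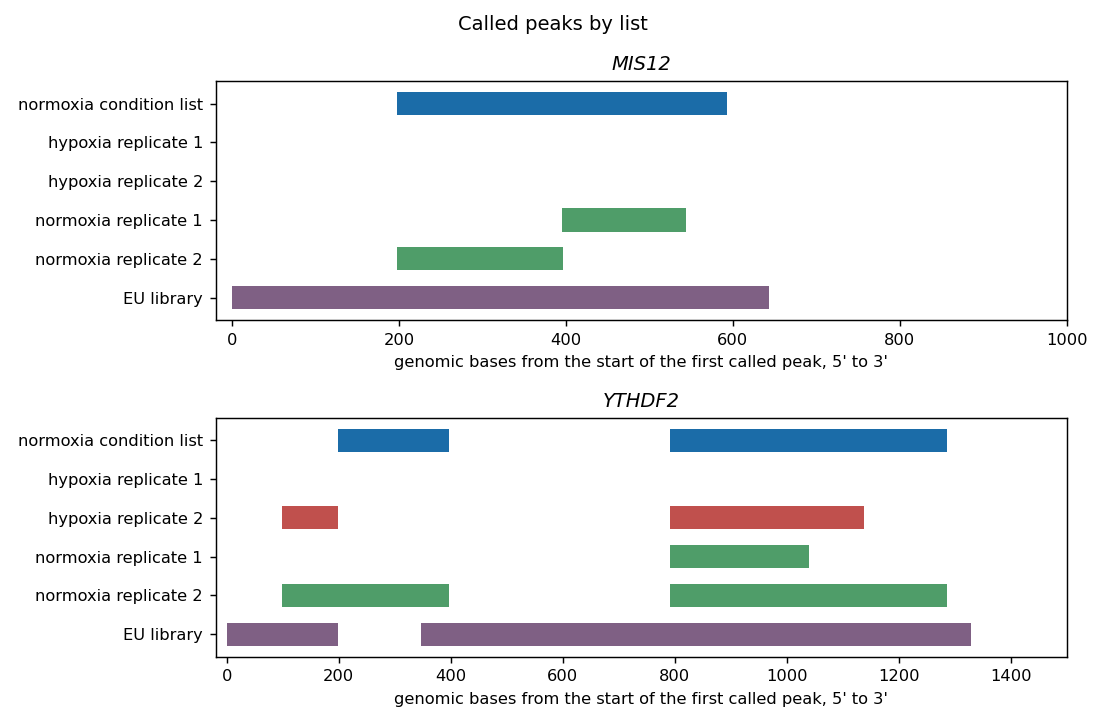
Called peaks of MIS12 (first 1000 genomic bases from its first called base) and YTHDF2 (first 1500) by list, with the normoxia condition list on top and the libraries under it; each bar is a block of a peak, the x axis is distance in bases. MIS12 has calls in both normoxia replicates and in the EU library and none in hypoxia, and the wider YTHDF2 peak starts at the same base in 4 lists.

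The libraries of the other condition were examined next, since the choice used the hypoxia condition list and not these. Of the 671 unshared genes, 132 (19.7%, 16.7 to 22.9) had a peak in at least 1 hypoxia library, against 448 of the 560 shared genes (80%, 76.4 to 83.2) and 47.1% of all genes of the list. Hypoxia replicates 1 and 2 held 72 (10.7%) and 79 (11.8%) unshared genes, against 231 (41.2%) and 404 (72.1%) shared genes. The libraries and the hypoxia condition list come from the same samples, so this gap is given as a description. By position, 121 unshared peaks (10.9%) and 656 shared peaks (55.8%) were overlapped in a hypoxia library.

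Both hypoxia libraries had a peak in 19 unshared genes (2.83%), although the hypoxia condition list has none under their names. Among shared genes both had a peak in 187 of 560 (33.4%), and among all genes of the normoxia condition list in 16.7%. The 19 include CTCF, the insulator protein that anchors chromatin loops. CTCF had 2 and 3 peaks in hypoxia replicates 1 and 2, 0 in both normoxia replicates and 1 in the EU library. HIST1H1D, a linker histone now named H1-3, had 1 and 1 peak in the hypoxia replicates, 0 in the normoxia replicates and 1 in the EU library. WBP11, a splicing factor, had 3 and 4 in hypoxia, 0 in both normoxia replicates and 2 in the EU library. VIM, the mesenchymal intermediate filament, had 5 and 3 in the hypoxia replicates, 2 and 0 in the normoxia replicates and 3 in the EU library. At least 1 unshared VIM peak met a hypoxia condition peak on the opposite strand. LMTK3, a membrane kinase, had 4 and 3 in the hypoxia replicates and 0 in both normoxia replicates. By position, the unshared peaks of CTCF and WBP11 were overlapped in neither hypoxia library. HIST1H1D, VIM and LMTK3 had unshared peaks overlapped in each. Both hypoxia libraries overlapped 13 unshared peaks (1.17%), against 231 shared peaks (19.6%). Of the 19 genes, these 5 among them, 15 had more called peaks in the hypoxia libraries than in the normoxia libraries, 3 had as many and 1 had fewer. The hypoxia libraries list 9500 peaks in all and the normoxia libraries 1775, and the 19 were picked for a peak in both hypoxia libraries, so this count is a description.

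IRF2BPL, a transcriptional regulator, and FAM83H, a protein of the keratin cytoskeleton, had a peak in all 5 libraries. FAM83H had 8 unshared peaks, the most of any unshared gene, with 3 and 8 in hypoxia replicates 1 and 2, 1 and 10 in normoxia replicates 1 and 2, and 11 in the EU library. In the rule's terms such genes lie just inside its edge. Of the 132 unshared genes with a hypoxia library peak, 43 had 3 or more there, a count not made for shared genes. The other 539 of the 671 unshared genes had no peak in either hypoxia library. Just outside the rule's edge lay 183 shared genes with exactly 1 peak in the hypoxia condition list. Among these, SLC7A5, an amino acid transporter, had a single hypoxia condition peak with a deposited p of 0.011, and it had 0 and 9 peaks in hypoxia replicates 1 and 2 and 0 in both normoxia replicates. At the other end, TRAC, the constant region of the T cell receptor alpha chain, had 1 hypoxia condition peak with a deposited p of 3.2e-11.

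Few unshared peaks met a hypoxia condition peak under another name. No unshared gene had a hypoxia condition peak under an older or newer symbol. Another 6 unshared peaks, in IPO4, KPNA6, MDM2, TM9SF1 and RP1-309K20.6, shared bases on the same strand with a hypoxia condition peak listed under another gene. The 400-base peak of MDM2, the ubiquitin ligase that holds p53 down, overlapped one listed under RP11-611O2.3. A further 10 unshared peaks, in VIM and other genes, met a hypoxia condition peak on the opposite strand alone.

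Across the 5 libraries, 214 unshared genes (31.9%, 28.4 to 35.6) had no peak under their name in any, and 70 (10.4%) had one in the EU library alone. A further 255 (38%) had a peak in a normoxia library and in no hypoxia library, 139 of them in the EU library too. For normoxia replicates 1 and 2 taken singly, the genes without a hypoxia library peak were 14 and 244, with 6 and 136 of them in the EU library too. Another 77 had peaks in libraries of both conditions, 11 of them in normoxia replicate 1 and 72 in replicate 2, and 55 in hypoxia libraries without any in normoxia libraries. The commonest pattern with support was normoxia replicate 2 together with EU, in 133 genes, followed by normoxia replicate 2 alone in 108. These patterns were counted for unshared genes only, so whether they differ from those of shared genes was not examined.

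Genes without any library support reached the top of the list. CECR6, now TMEM121B and a membrane protein, had 3 peaks with a smallest p of 1.2e-07, COX10-AS1, a long non-coding RNA, had 3 with a smallest p of 2.5e-07, and SAC3D1 had 2 with a smallest p of 2e-07. All were at 0 peaks in all 5 libraries. IRX2, an Iroquois homeobox factor, had 5 peaks with a shared p of 9.5e-10 and the EU library as its sole support, where 1 spliced peak of 996 bases crossed 3 of the 5. MLLT1, a chromatin reader of the super elongation complex also called ENL, had the smallest p of all unshared genes, 1.6e-13. Its 5 peaks were accompanied by 3 and 0 in hypoxia replicates 1 and 2, 0 and 3 in normoxia replicates 1 and 2, and 1 in the EU library. These p values are the authors', and they rank peaks within a list.

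Ranked by p, the unshared genes overlapped in a normoxia library and in the EU library, with no peak in the hypoxia libraries, included SURF6, TBC1D10B, CMTR2 and SRSF8 near the top. SURF6, a nucleolar protein of ribosome biogenesis, had 2 unshared peaks, 3 peaks in normoxia replicate 2 and 3 in EU. TBC1D10B, a GTPase-activating protein of Rab proteins, had 2 unshared peaks, with 2 and 4 in those libraries. CMTR2, a methyltransferase of the mRNA cap, and SRSF8, an SR splicing factor, had 3 and 2 each. These 4 genes were at 0 peaks in normoxia replicate 1 and in both hypoxia replicates. BCAR1 had 7 unshared peaks, 6 in normoxia replicate 2 and 2 in EU, and the promoter peak whose sequence is given was one of them. SOGA1, a microtubule protein now named MTCL2, had 7 unshared peaks and 5 in normoxia replicate 2, with none in the EU library.

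**Figure D3:**
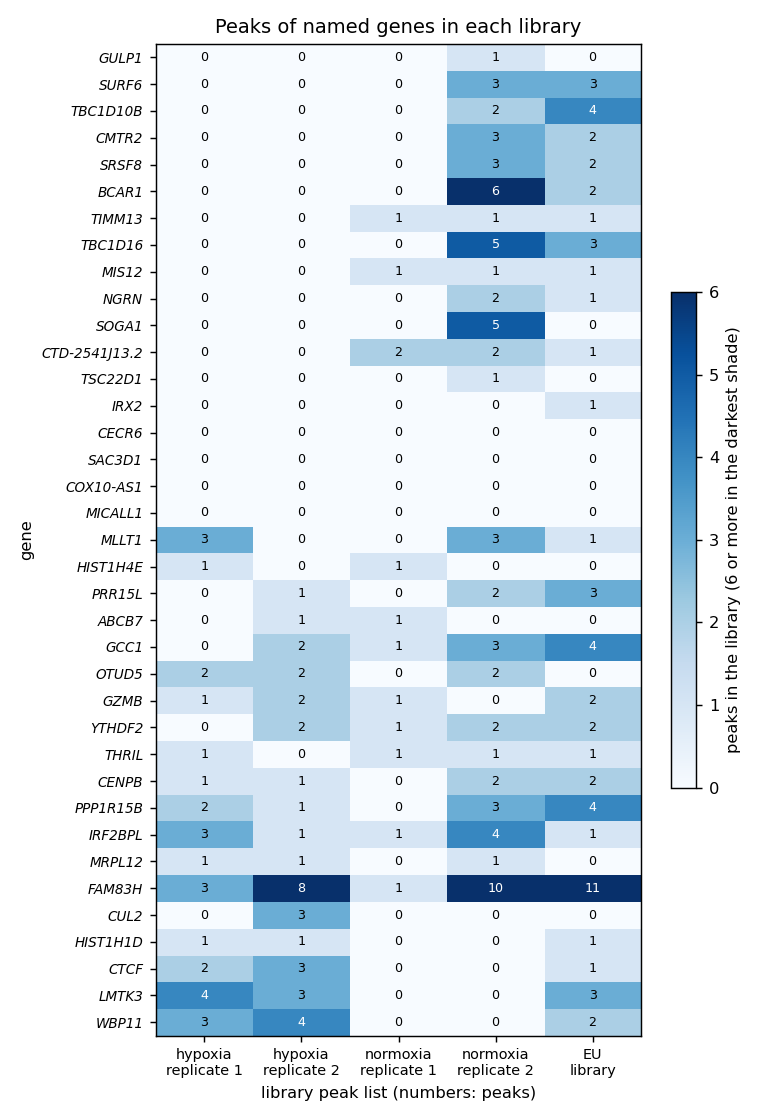
Number of peaks in each library (columns) for unshared genes named by smallest p, number of peaks, width, blocks or library support (rows); darker cells hold more peaks. Genes on the top rows have calls in normoxia replicate 2 and none in hypoxia libraries, and those on the bottom rows, such as CTCF and WBP11, the reverse.

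The EU library carries the label of neither condition, and the choice did not use its peaks. A peak under the same name stood there for 284 unshared genes (42.3%, 38.6 to 46.2), against 403 shared genes (72%, 68 to 75.6) and 55.8% of all genes of the list. EU peaks overlapped 380 unshared peaks (34.3%, 31.5 to 37.1), against 663 shared peaks (56.4%, 53.5 to 59.2) and 45.6% of all. In genes with 1 peak the shares were 29.4% for unshared and 59.6% for shared peaks. Among peaks of up to 120 bases they were 23.9% for unshared and 41.3% for shared peaks, and among peaks over 200 bases 57.4% and 79.1%. With 1 EU library, this difference has no replicate check.

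The EU share was higher among peaks with support in a normoxia library. Of the unshared peaks overlapped in a normoxia library, 244 of 503 (48.5%) were also overlapped in the EU library, against 136 of 606 (22.4%) of those that were not. Among shared peaks the shares were 72.2% and 36.8%. These shares were not split by peak width. The EU share was also higher among wider peaks, and the part of width here was not tested. By normoxia replicate 2 alone, the EU library overlapped 239 of 484 unshared peaks with such support (49.4%, 44.8 to 53.9) and 141 of 625 without it (22.6%, 19.3 to 26). By normoxia replicate 1 alone, the counts were 14 of 28 (50%, 30.6 to 69.4) and 366 of 1081 (33.9%, 31 to 36.8), with overlapping intervals. RHOB, a small GTPase of stress responses, had each of its 4 peaks overlapped in normoxia replicate 2 and in EU, where only 1 peak was listed under its name. KLF9, a zinc finger factor, had 3 overlapped in normoxia replicate 2 and 2 in EU.

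The widths differed at the upper end. The median width was 150 bases for both, counting the bases of the blocks, with upper quartiles of 200 and 247 bases for unshared and shared peaks. Peaks of 300 bases or more were 94 of the unshared (8.48%, 6.9 to 10.3) and 177 of the shared (15.1%, 13.1 to 17.2). Among the wide unshared peaks, TSC22D1, a leucine zipper factor, CENPB, a centromere protein, and IRF2BPL had calls of 650, 649 and 644 bases. The widest shared peak covered 1901 bases. Peaks within 1 base of 100 made up 41.2% of the unshared and 38.5% of the shared.

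Peaks in more than 1 block, as a site across a splice junction gives, were 154 of the unshared (13.9%, 11.9 to 16.1) and 181 of the shared (15.4%, 13.4 to 17.6), with overlapping intervals. Peaks of 4 blocks were found in CUL2, the cullin scaffold of the VHL ubiquitin ligase, and in GZMB, the granzyme of cytotoxic lymphocytes. The CUL2 peak of 4 blocks was overlapped in no library. CUL2 had 0 and 3 peaks in hypoxia replicates 1 and 2, and 0 in both normoxia replicates and in the EU library. The GZMB peak covered 293 bases over a span of 1581 and had identical blocks in normoxia replicate 1. GZMB had 1 and 2 peaks in hypoxia replicates 1 and 2, 1 and 0 in normoxia replicates 1 and 2, and 2 in the EU library. It is the only one of the 14 T and NK cell markers among the unshared genes.

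The number of peaks per gene also differed. A single peak was listed for 395 unshared genes (58.9%, 55 to 62.6) and for 245 of the shared genes (43.8%, 39.6 to 48), with means of 1.65 and 2.1 peaks per gene and maxima of 8 and 16. Peaks of a gene are not independent: in 90 of 276 unshared genes with several peaks, all had the same deposited p. The lists also named a site more than once, as in FAM83H, and 14 unshared peaks in 4 genes overlapped another peak of their own gene. By deposited p the unshared peaks held 51 of the first 100 places of the list, near their 48.5% of all its peaks, and their median p was 2.6e-05, against 4.7e-05 for shared peaks.

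The strand of the peaks also differed. On the plus strand lay 42.4% of the unshared peaks (39.5 to 45.4) and 29.4% of the shared (26.8 to 32.1). By gene the shares were 44.3% and 32.3%. For scale, 50.7% of the RefSeq promoter windows are on the plus strand, and the whole lists ranged from 24.1% in normoxia replicate 1 to 37% in the EU library. No list reached an even split. The handling of strand during calling is not stated in any source used here, and its part in these shares was not tested.

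Along protein-coding genes the unshared peaks held a higher share at the 5′ end than the shared peaks did. Of the 1009 unshared peaks in such genes, 148 (14.7%, 12.5 to 17) had their centre in the first 10% of the RefSeq gene span or before its start. Of 1100 shared peaks, 100 (9.09%, 7.46 to 10.9) did. With the peak of smallest p kept for each gene, the shares were 15.6% and 7.75%. Within 1 kb of the 5′ end the shares were 17% and 11.3%. In the last 10% they were 30.5% and 28.8%, and within 1 kb of the 3′ end 16.7% and 15.9%, with overlapping intervals. The third and ninth bins of 10% ran the other way, with 3.37% of unshared and 6.91% of shared peaks in the third and 9.61% and 14.5% in the ninth. The spans include introns and come from RefSeq, so exon, coding and untranslated parts are not separated. Centres outside the span, 15 unshared (1.49%) and 9 shared (0.818%), were counted in the first or last bin. Median spans of the protein-coding genes were 21700 and 23200 bases.

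**Figure D4:**
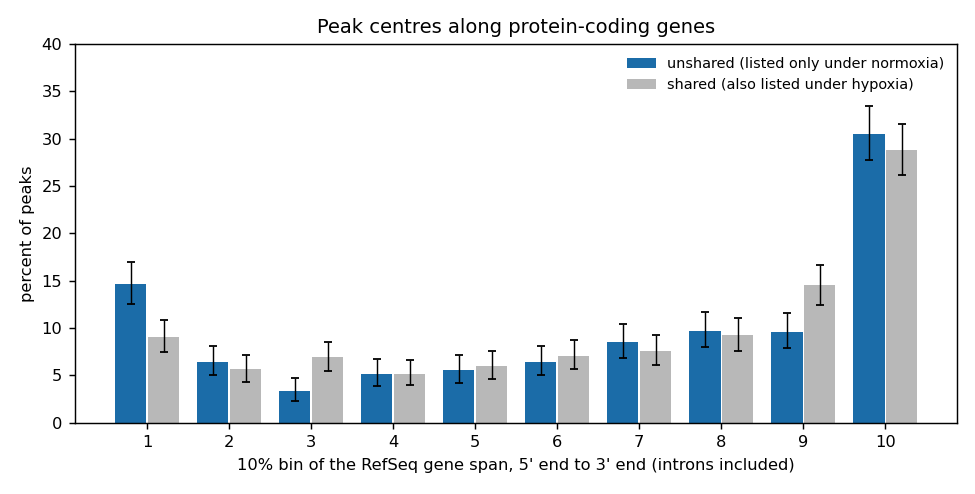
Percent of peak centres in each 10% bin of the RefSeq span of protein-coding genes, from the 5′ to the 3′ end, for unshared (blue, left of each pair) and shared peaks (grey); error bars are exact 95% binomial intervals. The last bin is the fullest for both, and the first bin holds 14.7% of unshared and 9.09% of shared peaks. Centres outside the span are counted in the first or last bin.

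By type, 591 unshared genes (88.1%, 85.4 to 90.4) were protein-coding in RefSeq, against 516 shared genes (92.1%, 89.6 to 94.2), and 23 and 11 were lncRNA genes. RefSeq matched 626 of the 671 by name and position. Clone-named, antisense and long non-coding RNAs made up 61 of the 93 such genes of the normoxia condition list (65.6%, 55 to 75.1), with COX10-AS1, RP13-1032I1.7, RP11-566K11.5 and ZNF667-AS1 leading by p. Of these 61, 22 had no peak in any library (36.1%, 24.2 to 49.4), near the 31.9% of all unshared genes. The RP11-566K11.5 peak covered nearly the same bases as that of CENPBD1, an unshared gene on the opposite strand.

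The 23 gene classes were read against the 54.5% of all normoxia condition genes that were unshared. Zinc finger transcription factors, a family of repressors and regulators with long zinc finger exons, were unshared in 39 of 58 genes (67.2%, 53.7 to 79), an interval that includes 54.5%. Normoxia replicates 1 and 2 had a peak in 0 and 19 of these 39, and 19 (48.7%) is near the 49.5% of all unshared genes with a peak in a normoxia library. A hypoxia library had one in 6 (15.4%, 5.86 to 30.5), against 19.7% of all unshared genes. The EU library had one in 28 (71.8%, 55.1 to 85), against 42.3% of all unshared genes and 72% of all shared genes. The EU share of shared zinc finger genes was not counted, so this is not shown to be particular to the unshared ones. ZNF830 had 2 peaks in normoxia replicate 2 and 2 in EU and 0 in the other 3 libraries. ZNF217, an amplified transcription factor in cancer, had 2 and 1 peaks in hypoxia replicates 1 and 2, 0 and 2 in normoxia replicates 1 and 2, and 5 in the EU library. ZBTB42 had 6 in EU and 0 in the other 4 libraries.

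Mitochondrial ribosome, complex and import genes were unshared in 9 of 12 (75%, 42.8 to 94.5). MRPS27, a small subunit protein of the mitochondrial ribosome, had 2 peaks in normoxia replicate 2 and 3 in EU. MRPL12, of the large subunit, had 1 and 1 in the hypoxia replicates and 0 and 1 in the normoxia replicates. Translation factors and tRNA synthetases were unshared in 12 of 18, chaperones in 8 of 11, and solute carriers in 17 of 27. All of these intervals include 54.5%. EIF2AK3, the PERK kinase of the unfolded protein response, had 0 and 2 peaks in hypoxia replicates 1 and 2, 0 in both normoxia replicates and 3 in the EU library. HSPA1A, an inducible HSP70, had 2 in normoxia replicate 2 and 1 in EU, and its reads may be divided with a near-identical copy. Reads of the histones, SRSF8 and HNRNPH2 may be divided with similar genes.

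**Figure D5:**
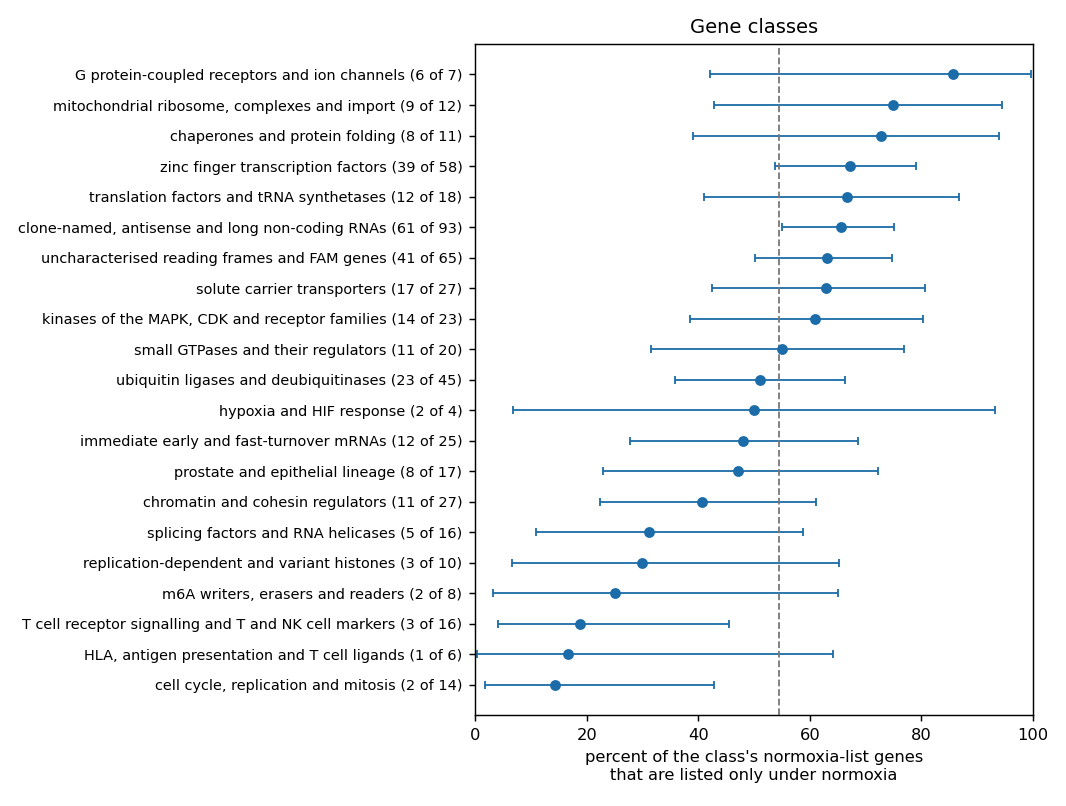
Percent of the normoxia condition genes of each class that are unshared (points), with exact 95% binomial intervals and the counts in parentheses; the dashed line is 54.5%, the share over all genes of that list. Cell cycle genes (2 of 14) and T cell genes (3 of 16) lie farthest below the line among classes of at least 10 genes.

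The lowest shares among classes of at least 10 genes were those of cell cycle and T cell genes. Cell cycle, replication and mitosis genes were unshared in 2 of 14 (14.3%, 1.78 to 42.8), namely CDKN2D, the p19 inhibitor of CDK4 and CDK6, and MIS12. Genes of T cell receptor signalling and T and NK cell markers were unshared in 3 of 16 (18.8%, 4.05 to 45.6). These were NFKBIE and NFKBIA, inhibitors of NF-kappa B that many cell types express, and GZMB. Of the 14 T and NK cell markers, normoxia replicates 1 and 2 held 5 and 0, and the part of that difference in the class's share was not tested. NFKBIA had no peak in any library, and NFKBIE had 0 and 2 in hypoxia replicates 1 and 2, 0 in the normoxia replicates and 1 in the EU library. Splicing factors and RNA helicases were unshared in 5 of 16 (31.2%, 11 to 58.7) and histones in 3 of 10 (30%, 6.67 to 65.2). Both intervals include 54.5%. The 3 unshared histones, HIST1H4E, HIST1H1D and HIST1H2BH, each carried a peak in a hypoxia library (100%, 29.2 to 100), against 19.7% of all unshared genes. The cytosolic ribosomal proteins, with 32 genes in the hypoxia condition list and 1 in the normoxia one, had 0 unshared genes.

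The prostate and epithelial lineage class was unshared in 8 of 17 genes (47.1%, 23 to 72.2), close to the 54.5% of the list. Its unshared genes included AMACR, GRHL2, CLDN7, KLK2 and TJP1, and its counts also include VIM, which marks mesenchymal and not epithelial cells. AMACR, a racemase used as a prostate cancer marker, had 2 unshared peaks, 2 in normoxia replicate 2 and 1 in EU. An unshared peak of AMACR shared bases with one listed under C1QTNF3-AMACR, another unshared gene. KLK2, a kallikrein of the prostate, had 1 unshared peak, 1 in normoxia replicate 2 and 1 in EU. GRHL2, an epithelial transcription factor, had 3 and 0 in hypoxia replicates 1 and 2 and 0 and 2 in normoxia replicates 1 and 2. CLDN7 and TJP1, junction proteins of epithelium, had no peak in any library. In normoxia replicate 1, which held 3.73% of all unshared genes, the 8 unshared genes of the class had no peak other than 2 in VIM.

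Fast-turnover mRNAs of the immediate early kind were unshared in 12 of 25 genes (48%, 27.8 to 68.7), and 11 of the 12 had no peak in either hypoxia library (91.7%, 61.5 to 99.8), an interval that includes the 80.3% of all unshared genes. CITED2, an oxygen-regulated inhibitor of HIF signalling, was the exception, with 1 and 0 peaks in hypoxia replicates 1 and 2, 0 and 3 in normoxia replicates 1 and 2, and 3 in the EU library. It and PLOD1, a collagen lysyl hydroxylase, were the 2 unshared genes among 4 of the hypoxia and HIF class. PIM3, a serine kinase, had 3 peaks in normoxia replicate 2 and none in the other libraries. Among m6A writers, erasers and readers, 2 of 8 were unshared, YTHDF2 and PCIF1, the writer of the related mark beside the cap. PCIF1 had 1 peak in the EU library and 0 in the other 4.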

How the data were processed

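Per the submitters' processing notes, STAR and the build hg38 were used. The caller, threshold and annotation, the handling of inputs and strand, and the making of the condition lists are, in the sources used here, not given. All deposited lists have 12 BED columns without a header. Column 5 was read as the authors' p-value from its range and ascending order and was used within a list only. Reads were not used, so depth is unknown. Starts were moved by 1 base. Peaks were compared by strand and block with at least 1 shared base, genes by name as listed. Overlap counting was tested on simulated blocks. Names were matched to RefSeq (GRCh38.p14) within 10 kb. Python 3.11.15, pandas 2.3.3 and scipy 1.17.1 were used, with exact binomial 95% intervals and no test. The peaks, gene classes, markers and alternatives were chosen with earlier results of these data known. Genes were named by smallest p, most peaks, support in both normoxia or both hypoxia libraries, width, blocks, class and closeness to the rule's edge. Those shown for their sequence, their name overlap or to complete a short list, and KLF9 and RHOB, were chosen after their values were seen. Some genes that this rule names are not reported here.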

Additional observations from a re-analysis of the deposited data

How the results depend on the processing

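Of 23 alternatives over 6 results, 14 left the value within its interval, or a count within 1.5 times, and 9 moved it. Unshared genes came to 1103 with the hypoxia condition list shortened to the normoxia length, and to between 485 and 670 under the other 6 alternatives. The share of unshared peaks overlapped in a normoxia library was 41.8% for the peaks in the 50% with the smallest p, 43.6% without normoxia replicate 1 and 2.52% without normoxia replicate 2. The share of unshared genes with a peak in a hypoxia library was 10.7% to 11.8% when either hypoxia replicate was left out and 8.79% with the 50% of each hypoxia library with the smallest p. The share overlapped in the EU library was 30% with at least 50% of the bases required, 17.3% with the 50% of the EU list with the smallest p and 27.8% for the unshared peaks in the 50% with the smallest p. Under those first 2 settings the shared peaks gave 51.8% and 29.8%. Median width and the share with more than 1 block stayed within their intervals. No paired analysis was possible because no result comes from a test between conditions, and the labels do not say whether equal replicate numbers mark a pairing. Depth is unknown. A list of 212 peaks cannot show most sites of a longer one.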
